A study of Mus musculus with 6 samples.

Results

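Cells short of oxygen make more of the glycolytic enzymes and of a wider set of hypoxia genes, and 38 genes of these kinds were followed here in transplanted mouse tumours that model serous ovarian cancer of high grade. They were chosen by name, as known parts of glycolysis or of the hypoxia response, and all 38 had a value among the 16344 Ensembl genes of the deposited table. In both groups the mouse cell line 60577 had been injected into the abdominal cavity of syngeneic mice, tumours had 21 days to establish, and carboplatin was given in 3 weekly cycles. The AZD7507 group (3 tumours) then received AZD7507, an inhibitor of the macrophage growth factor receptor CSF1R, by daily gavage for 84 days, and the Vehicle group (3 tumours) is labelled as vehicle. Tumours were taken at the humane endpoint. The genotype and the clonality of the line, the strain and the age of the mice are not given in the sources used here. Nothing in the labels ties a tumour to an animal, so the p-values below measure only the spread between these 6 tumours.

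The hypoxia-inducible factors (HIF) are pairs of an oxygen-sensitive alpha subunit and a stable partner, ARNT. In the presence of oxygen the prolyl hydroxylases encoded by Egln1 and Egln3 mark the alpha subunit for destruction. When oxygen is low the factor persists, binds short DNA motifs and switches on genes for glucose uptake, glycolysis, lactate export, pH control and the removal of mitochondria. Many tumours also use glycolysis when oxygen is present, so that enzyme transcripts need not follow the other HIF targets. The members were therefore read as 15 glycolytic enzymes (with lactate dehydrogenase), 6 transporters and regulators of glycolytic flux, 15 other HIF targets, and the 2 alpha subunits Hif1a and Epas1.

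HIF binds DNA at a core of 5 letters, ACGTG or GCGTG, and these letters were looked for on both strands in the 250 bases before the first start that RefSeq (GRCm38.p6) lists for each gene. A window was found for 34 of the 38 members, and not for Slc2a3, Epas1, Bnip3l and Ndrg1. Of the member windows 21 touched an annotated exon, often of the same gene, so they can hold transcribed sequence. The share of such windows over all genes was not counted. ACGTG was present in 16 of these windows (47.1%), against 16.6% of the windows of 27025 genes and 21.6% of the 10781 windows that matched a gene of the deposited table by symbol. For GCGTG the count was 17 of 34 (50%), against 28.2% and 44.9%. Among the enzymes 9 of 15 windows held either core, and among the other HIF targets 11 of 13, against 38.6% of all 27025 windows and 56% of those of the deposited genes. These counts describe letters, and no binding was measured. The windows to print were picked by name. Among other windows without an annotated exon, those of Hk1 and Mxi1 held neither core, and those of Hk2, Pfkm and Eno1 held at least 1. The 6 windows below touch no annotated exon and come from enzymes and targets whose values are described next. They are Pgk1 (chrX:106186850-106187099), Ldha (chr7:46845554-46845803), Pgam1 (chr19:41911621-41911870), Adm (chr7:110627407-110627656) and Car12 (chr9:66713436-66713685) on the plus strand, and Egln3 (chr12:54203875-54204124) on the minus strand. Capitals mark a core on either strand, and CACGTG reads as ACGTG on both.
Pgk1: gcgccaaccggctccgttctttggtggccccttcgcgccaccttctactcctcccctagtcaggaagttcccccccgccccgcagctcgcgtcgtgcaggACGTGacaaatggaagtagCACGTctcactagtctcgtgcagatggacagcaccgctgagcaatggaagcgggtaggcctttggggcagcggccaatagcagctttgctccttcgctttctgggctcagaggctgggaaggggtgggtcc
Ldha: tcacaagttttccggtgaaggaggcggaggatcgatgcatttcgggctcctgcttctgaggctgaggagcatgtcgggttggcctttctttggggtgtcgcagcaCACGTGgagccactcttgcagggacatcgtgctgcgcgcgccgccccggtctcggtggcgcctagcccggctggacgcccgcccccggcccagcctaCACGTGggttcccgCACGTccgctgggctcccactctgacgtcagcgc
Pgam1: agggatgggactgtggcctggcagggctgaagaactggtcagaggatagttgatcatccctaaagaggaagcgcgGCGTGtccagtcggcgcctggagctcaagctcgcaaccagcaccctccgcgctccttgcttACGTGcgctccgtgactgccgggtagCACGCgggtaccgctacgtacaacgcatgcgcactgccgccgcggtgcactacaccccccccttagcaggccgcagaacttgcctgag
Adm: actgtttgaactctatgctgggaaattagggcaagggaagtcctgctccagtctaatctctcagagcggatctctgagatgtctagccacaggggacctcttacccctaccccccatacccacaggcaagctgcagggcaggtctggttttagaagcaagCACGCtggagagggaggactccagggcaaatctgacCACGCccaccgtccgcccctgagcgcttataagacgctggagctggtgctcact
Egln3: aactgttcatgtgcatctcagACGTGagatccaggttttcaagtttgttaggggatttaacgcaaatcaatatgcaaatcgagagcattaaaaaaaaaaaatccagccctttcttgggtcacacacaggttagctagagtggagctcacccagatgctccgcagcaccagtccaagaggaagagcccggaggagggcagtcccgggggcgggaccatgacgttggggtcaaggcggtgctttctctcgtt
Car12: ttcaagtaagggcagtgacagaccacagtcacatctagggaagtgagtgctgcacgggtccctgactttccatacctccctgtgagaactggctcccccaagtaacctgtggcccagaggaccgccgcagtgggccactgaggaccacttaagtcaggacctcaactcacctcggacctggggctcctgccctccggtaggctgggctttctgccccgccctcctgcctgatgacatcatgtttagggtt
Ldha held 5 matches of ACGTG, Pgk1 2, and Pgam1 1 of ACGTG and 2 of GCGTG. Adm held 2 of GCGTG, Egln3 1 of ACGTG, and Car12 held neither in this window.

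No member of the set passed the test between the groups. The test was limma on the deposited log2 RPKM (reads per length of transcript, adjusted for the size of the library), with Benjamini-Hochberg adjustment over all genes and a threshold of 0.05. Of all genes 0.355% passed, 3 (0.0184%) higher and 55 (0.337%) lower with AZD7507, and 0 of 38 members did, with adjusted p from 0.529 for Pfkfb4 to 0.997 for Kdm3a. At an unadjusted p under 0.05 there was 1 member, against 8.8% of all genes. The differences, AZD7507 minus Vehicle, were nevertheless mostly of 1 sign. They were above 0 for 33 of 38 members, against 54.5% of all genes, with a median of 0.20 against 0.03. The 95% interval of the difference included 0 for 37 members. For 7 members it reached above a log2 difference of 1, and for none did it reach below -1.

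For most members, as for most genes, the range of the Vehicle tumours was larger than the difference between the groups. For 35 of 38 members the difference was smaller than the range of the 3 Vehicle libraries, as it was for 83.5% of all genes. The groups did not overlap for 1 member that was higher with AZD7507 (Hk1) and 1 that was lower (Pfkfb4), against 7.34% and 8.02% of all genes. The members varied together from library to library. Vehicle 1 was the lowest of the 6 libraries for 22 members, against 17.5% of all genes, and AZD7507 3 was the highest for 24, against 16.8%. In AZD7507 3 the level was above the gene's own mean over the libraries for 34 of 38 members, in AZD7507 1 for 31 and in Vehicle 2 for 25. It was above that mean for 16 in Vehicle 3, for 8 in AZD7507 2 and for 5 in Vehicle 1.

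**Figure D1:**
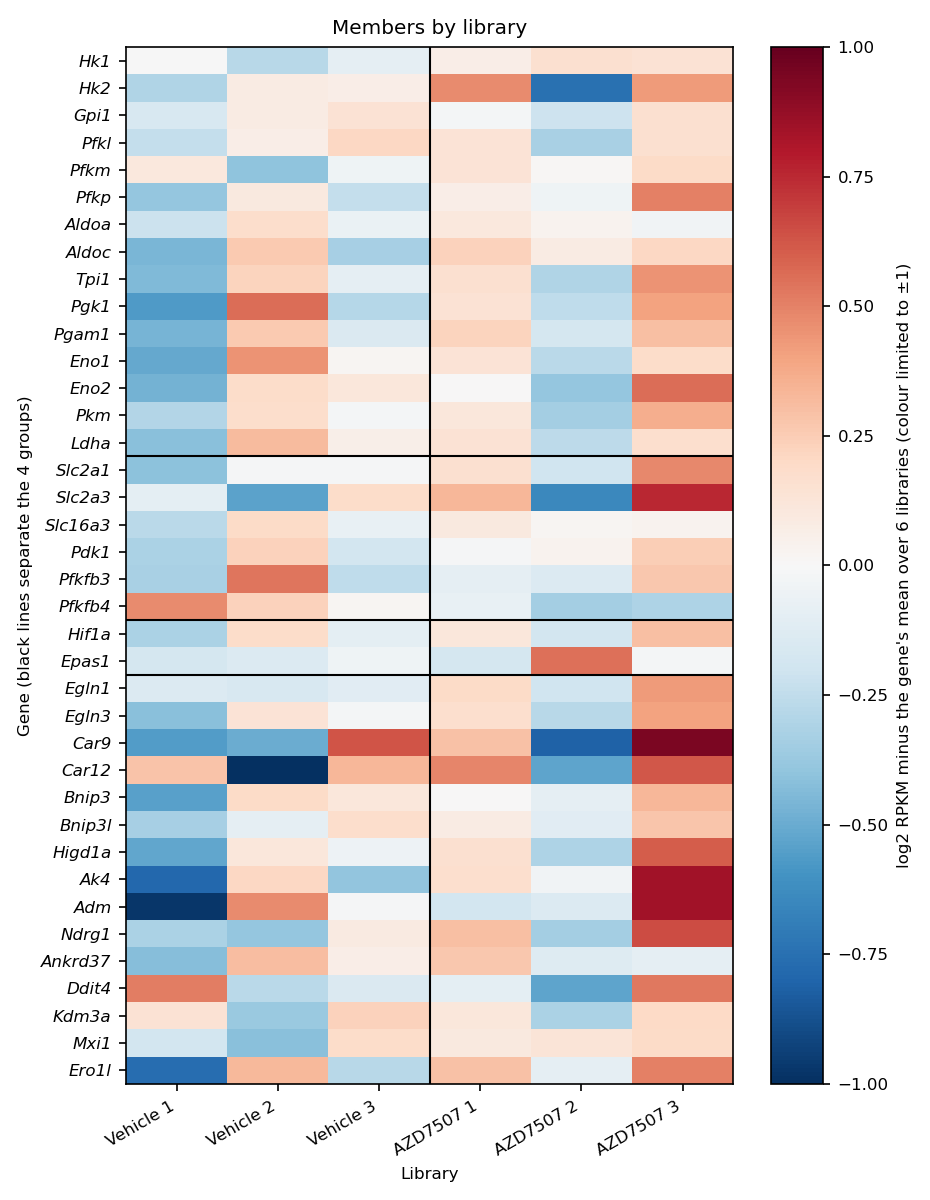
Deviation of each member's log2 RPKM from its own mean over the 6 libraries (colour, red above and blue below, limited to ±1), by library (columns, Vehicle left and AZD7507 right of the line) and gene (rows, in 4 groups: enzymes, transporters and flux regulators, alpha subunits, other HIF targets). Vehicle 1 is the lowest library for 22 of 38 genes and AZD7507 3 the highest for 24.

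Libraries stood apart in their content of other tissue. Transcripts of pancreatic acinar cells (7 of 10 listed markers measured) summed to 3918 RPKM in Vehicle 2 and 4329 RPKM in AZD7507 2, and to between 0.489 and 8.43 RPKM in the other libraries, so the difference of each member is also given without both of these libraries, as "without both". Macrophage markers (9 of 9 measured) summed to 412.3 to 666.8 RPKM with Vehicle and 79.7 to 195.9 RPKM with AZD7507, and 6 of them were called lower. All 9 epithelial and serous markers had a value, with Krt18 at a log2 RPKM of 6.89 to 7.47 and Wt1 at 6.13 to 6.72, but Pax8, a defining gene of serous tumours, lay between -3.89 and -2.09. In whole tumours fewer cells of a type and less RNA per cell cannot be told apart. The part of these tissues in the results below was not tested unless a value is given.

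The glycolytic enzymes had mean log2 RPKM values from 3.05 for Pfkm to 7.0 for Tpi1, and none of the 15 passed. For all genes the mean log2 RPKM was 2.18 in each library. The enzymes differed little between the groups beside their spread. Their median difference was 0.11, with 13 of 15 above 0 and a range from -0.04 for Gpi1 (glucose-6-phosphate isomerase) to 0.35 for Pfkp. Per length, the most abundant enzyme transcript was Tpi1, of triosephosphate isomerase, at a mean log2 RPKM of 7.0 over the 6 libraries. Pkm (pyruvate kinase) at 6.01 and Aldoa (aldolase A) at 5.78 followed, then Eno1, Eno2 and Ldha at 5.26, 5.23 and 5.22. The spreads of these last 3 genes overlapped, and so did those of Pkm and Aldoa.

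The first steps of glycolysis were read gene by gene. Hk1 (protein-coding, chromosome 10, 62268855 to 62379908, GRCm38) encodes the widespread hexokinase, which traps glucose in the cell. Hk1 was at 3.92, 3.65 and 3.83 in Vehicle 1 to 3, and at 3.99, 4.08 and 4.07 in AZD7507 1 to 3. Every AZD7507 library was thus above every Vehicle library, by a difference of 0.25 (SE 0.11, limma adjusted p 0.571), or 1.19-fold, and 0.16 without both. Hk2, the hexokinase typical of tumours and muscle, was at 2.88, 3.26 and 3.24 with Vehicle and at 3.65, 2.44 and 3.61 with AZD7507, so that the lowest of all 6 libraries was AZD7507 2. Its difference was 0.10 with all libraries and 0.57 without Vehicle 2 and AZD7507 2 (limma adjusted p 0.174). Pfkp, the platelet-type gene of phosphofructokinase, the main control point of the pathway, was at 3.50, 3.98 and 3.65 with Vehicle and 3.96, 3.85 and 4.39 with AZD7507. Only the highest AZD7507 library lay above all Vehicle libraries, and the difference was 0.35 (SE 0.18, limma adjusted p 0.654), and 0.60 without both. The liver-type Pfkl and the muscle-type Pfkm differed by -0.02 and 0.23, and by 0.17 and 0.13 without both. For Gpi1, the step between, the value without both was 0.08.

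Glycolytic isozymes other than the enolases kept their order across libraries. Hk1 was above Hk2 in 6 of 6 libraries, by a log2 level of 0.75 ± 0.51 (SD, n = 6). Pfkl was above Pfkp by 0.45 ± 0.29 and Pfkp above Pfkm by 0.84 ± 0.36, each in 6 of 6. Aldoa was above Aldoc, the aldolase typical of brain, by 2.04 ± 0.21 in 6 of 6. Eno1, the common enolase, and Eno2, the neuronal enolase, did not differ beyond their spread, with Eno1 higher in 3 of 6 libraries and a mean gap of 0.03 ± 0.22. The neuronal markers Syp, Tubb3 and Stmn2 lay at or below 0.38 in every library, and 2 of the 5 listed had no value. Eno2 had a mean of 5.23, and the part of neuronal cells in this value was not tested.

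**Figure D2:**
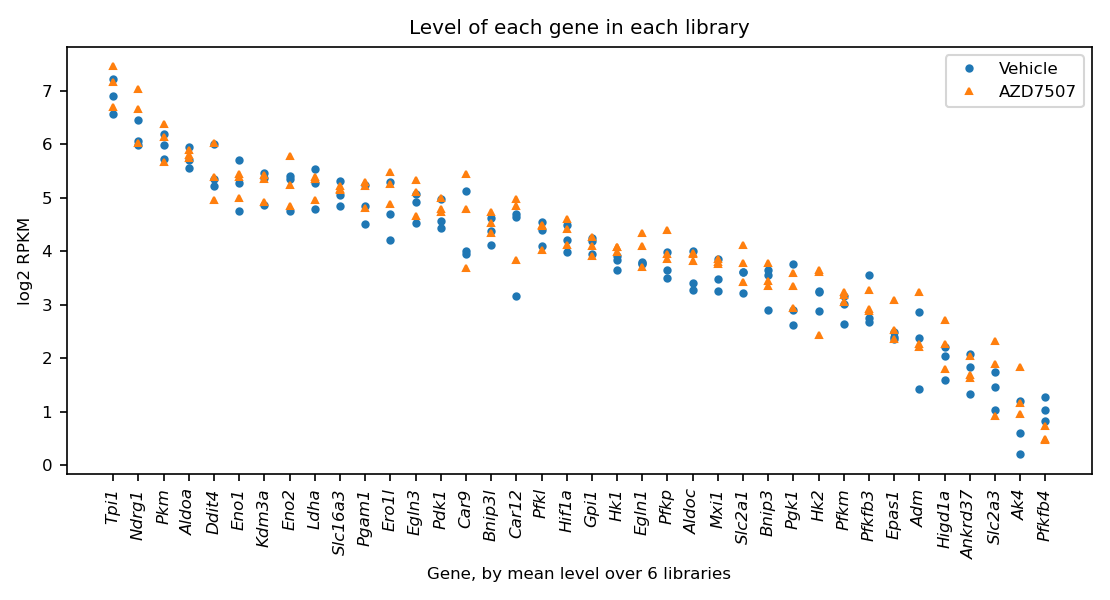
Level (log2 RPKM, vertical axis) of each of the 38 genes in each of the 6 libraries (blue circles Vehicle, orange triangles AZD7507), ordered by the mean over libraries. Tpi1 is at the top with a mean of 7.0 and Pfkfb4 at the bottom with 0.80, and the points of both groups interleave for most genes.

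In the lower part of the pathway the extremes were often both Vehicle tumours, Vehicle 1 low and the acinar-rich Vehicle 2 high, and the differences were larger without both acinar-rich libraries. Pgk1 encodes phosphoglycerate kinase, the first step that yields ATP. Pgk1 was at 2.63, 3.76 and 2.91 with Vehicle and at 3.34, 2.94 and 3.60 with AZD7507. Both the lowest and the highest library were Vehicle tumours, 1.13 apart, and the difference between groups was 0.20 (SE 0.30, limma adjusted p 0.903). Without both it was 0.70 (limma adjusted p 0.144). Ldha, which turns pyruvate into lactate, was at 4.80, 5.53 and 5.27 with Vehicle and 5.36, 4.95 and 5.39 with AZD7507. It too had both extremes in the Vehicle group, and its difference was 0.03 (SE 0.21, limma adjusted p 0.982), and 0.34 without both. The same held for Eno1 (Vehicle 1 at 4.75, Vehicle 2 at 5.71, difference 0.03), Aldoa (5.56 and 5.95, difference 0.07) and Aldoc (3.28 and 4.0, difference 0.35). Without both, these 3 differed by 0.40, 0.18 and 0.61, and none passed. Differences for the remaining enzymes were 0.21 for Tpi1, 0.23 for Pgam1 (phosphoglycerate mutase), 0.11 for Eno2 and 0.09 for Pkm, and without both 0.57, 0.57, 0.46 and 0.39 in the same order.

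Some enzyme values are uncertain because of near-identical copies. Of the stretches of 50 bases in the Pgk1 transcripts, 53.9% also occur in transcripts of other annotated genes, chiefly Pgk1-rs7. The share was 36.2% for Pgam1, 26% for Eno1, 25.8% for Pkm, 20.8% for Bnip3l, 16.5% for Bnip3 and 10.2% for Ak4, and below 10% for the other members. How the authors treated reads that fit several genes is not given in the sources used here, so the low level of Pgk1 beside Tpi1 cannot be read as a lower transcript amount. For the same reason the near-equal levels of Eno1 and Eno2 (0.0194% shared) cannot be read as equal transcript amounts. The places of Pkm and Eno1 among the enzymes are uncertain too. Annotated genes on the opposite strand overlapped 26.4% of the exon bases of Ankrd37, 22.5% of Higd1a and 22.3% of Bnip3, and without the strand setting their reads cannot be told apart.

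Genes that carry glucose in, lactate out, and set the rate of glycolysis had a median difference of 0.14, with 5 of 6 above 0. Slc2a1 encodes GLUT1, the main glucose transporter of tumour cells. Slc2a1 was at 3.22, 3.62 and 3.62 with Vehicle and at 3.79, 3.43 and 4.11 with AZD7507, for a difference of 0.29 (SE 0.20, limma adjusted p 0.757), and 0.53 without both. AZD7507 1 and 3 were above every Vehicle library and AZD7507 2 was not. Slc2a3, the high-affinity transporter GLUT3, differed by 0.30, and its lowest libraries were AZD7507 2 at 0.92 and Vehicle 2 at 1.03. Slc16a3, the lactate exporter MCT4, differed by 0.10, Pdk1, the kinase that keeps pyruvate out of the mitochondria, by 0.18, and Pfkfb3, which makes the activator of phosphofructokinase, by 0.03. Without both, Slc2a3, Slc16a3, Pdk1 and Pfkfb3 differed by 0.50, 0.24, 0.37 and 0.38.

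Pfkfb4 (protein-coding, chromosome 9, 108991778 to 109032228, GRCm38), a relative of Pfkfb3 that also acts on the activator's level, was the member with the smallest unadjusted p and was lower with AZD7507. It was at 1.28, 1.03 and 0.83 in the Vehicle libraries and at 0.73, 0.47 and 0.49 in the AZD7507 libraries. No AZD7507 library reached the lowest Vehicle library. The difference was -0.48 (SE 0.19, 95% interval -0.93 to -0.03, limma adjusted p 0.529), or 0.72-fold, and it was -0.44 without Vehicle 2 and AZD7507 2. Its level was the lowest of the set. The macrophage markers, whose sums are given above, were also lower in every AZD7507 library, and their part in this value was not tested.

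The alpha subunits and the hydroxylases did not pass. Hif1a was at 3.99, 4.48 and 4.21 with Vehicle and 4.42, 4.12 and 4.61 with AZD7507, for a difference of 0.15 (SE 0.17, limma adjusted p 0.864), and 0.41 without both. Its lowest library was Vehicle 1 and its highest AZD7507 3, as for many of its targets, while HIF itself is controlled mostly at the protein level, which RNA does not show. Epas1, the alpha subunit prominent in endothelium, was at 2.36, 2.40 and 2.49 with Vehicle and 2.36, 3.09 and 2.52 with AZD7507. AZD7507 2 stood above the other 5 libraries, and the difference of 0.24 (SE 0.19, limma adjusted p 0.798) became 0.01 without Vehicle 2 and AZD7507 2. Of the 7 endothelial markers, all measured, Kdr was highest in AZD7507 2, Cdh5 in Vehicle 3 and the other 5 in Vehicle 2, and Cldn5 was lowest in AZD7507 2. Their mean log2 level was 1.12 in Vehicle 2 and 1.05 in AZD7507 2, and 0.55 to 0.91 in the other libraries, and their part in the Epas1 value was not tested. Egln1, the main oxygen sensor, was at 3.78, 3.75 and 3.80 with Vehicle and 4.10, 3.71 and 4.34 with AZD7507. The Vehicle libraries lay within 0.05 of each other and the AZD7507 libraries on both sides of them, with a difference of 0.27 (SE 0.16, limma adjusted p 0.712), and 0.43 without both. Egln3, itself a strong HIF target, differed by 0.20, and by 0.50 without both.

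Both carbonic anhydrases at the cell surface, which turn CO2 into bicarbonate and acid, varied widely within each group. Car9 was at 3.94, 4.01 and 5.13 with Vehicle and at 4.79, 3.69 and 5.44 with AZD7507. The high libraries were Vehicle 3 and AZD7507 1 and 3, and the difference was 0.28 (SE 0.48, 95% interval -0.85 to 1.41, limma adjusted p 0.913), and 0.58 without both. Car12 was at 4.65, 3.16 and 4.70 with Vehicle and 4.85, 3.83 and 4.98 with AZD7507, with Vehicle 2 and AZD7507 2 as the low libraries. Its difference was 0.38 (SE 0.47, limma adjusted p 0.871), but 0.24 without both and -0.12 without Vehicle 2 alone. Car9 was above Car12 in 3 of 6 libraries. The epithelial and serous markers summed to 400.4 RPKM in Vehicle 2 and to 565.6 to 718.8 RPKM in the other libraries. AZD7507 2, at 566.2 RPKM, was near Vehicle 1 at 565.6 RPKM, where Car12 was higher. The part of these markers' tissue in the Car12 value was not tested.

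Targets that act at mitochondria had differences above 0, none of which passed. Ak4 (protein-coding, chromosome 4, 101419277 to 101466995, GRCm38), a mitochondrial adenylate kinase gene, had the largest difference of the set. It was at 0.21, 1.20 and 0.60 with Vehicle and at 1.16, 0.95 and 1.83 with AZD7507, so that the groups overlapped through Vehicle 2. The difference was 0.65 (SE 0.32, 95% interval -0.11 to 1.41, limma adjusted p 0.636), or 1.57-fold, and 1.10 without Vehicle 2 and AZD7507 2 (limma adjusted p 0.176). Higd1a, which tunes the respiratory chain in hypoxia, was at 1.59, 2.22 and 2.05 with Vehicle and 2.26, 1.79 and 2.71 with AZD7507. AZD7507 2 lay below Vehicle 2 and Vehicle 3, and the difference was 0.30 (SE 0.26, limma adjusted p 0.816), and 0.67 without both. Bnip3 and Bnip3l, receptors for the removal of mitochondria, both differed by 0.16, and by 0.38 and 0.26 without both.

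Among the remaining targets Ero1l and Mxi1 had the smallest unadjusted p. Ero1l, which forms disulfide bonds in the endoplasmic reticulum, was at 4.21, 5.29 and 4.69 with Vehicle and 5.26, 4.88 and 5.47 with AZD7507. Vehicle 2 lay among the AZD7507 values, and the difference of 0.47 (SE 0.28, limma adjusted p 0.714) became 0.92 without Vehicle 2 and AZD7507 2 (limma adjusted p 0.128). Mxi1, an antagonist of MYC, was at 3.48, 3.25 and 3.85 with Vehicle and 3.76, 3.79 and 3.86 with AZD7507. Its AZD7507 libraries were within 0.10 of each other, and 1 Vehicle library lay among them, with a difference of 0.28 (SE 0.16, limma adjusted p 0.703), and 0.14 without both. Ndrg1, a stress-response gene and the most abundant of these targets, differed by 0.41, and Adm, which encodes the vessel-relaxing peptide adrenomedullin, by 0.34, and without both by 0.59 and 0.82. The differences were 0.04 for Ankrd37, -0.06 for Ddit4, an inhibitor of mTOR signalling, and -0.003 for Kdm3a, a histone demethylase gene, and without both 0.27, 0.03 and -0.03. Ddit4 was highest in Vehicle 1 at 6.0 and AZD7507 3 at 6.02, unlike most members, which were low in Vehicle 1.

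**Figure D3:**
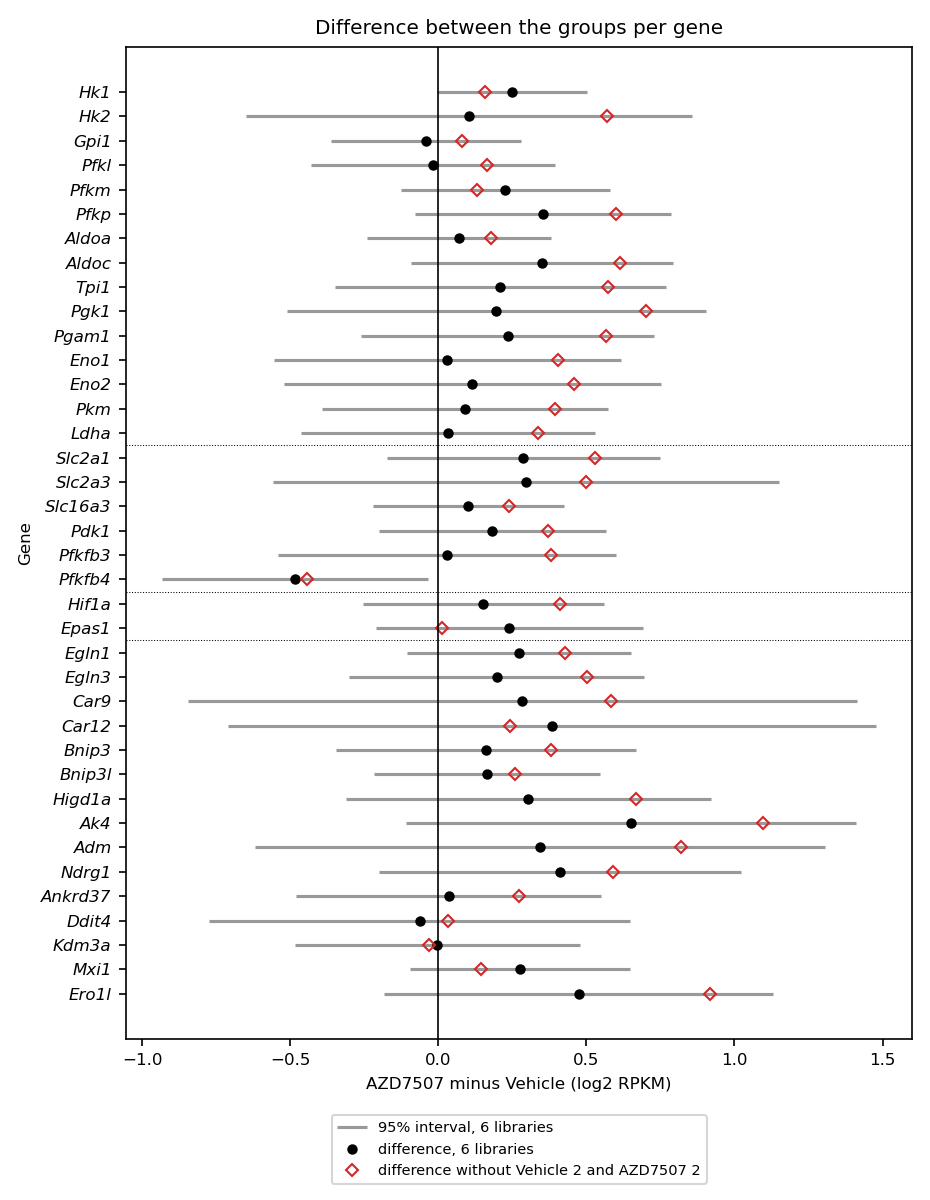
Difference between the groups, AZD7507 minus Vehicle in log2 RPKM, for each of the 38 genes (black points with their 95% interval from limma in grey), and the same without Vehicle 2 and AZD7507 2 (red diamonds). All grey intervals but that of Pfkfb4 cross 0, and 33 points lie above 0 with all libraries and 36 without both.

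Glycolytic enzymes and other HIF targets were then set side by side. The median difference was 0.11 for the 15 enzymes and 0.28 for the 15 other targets, each with 13 of 15 above 0, against a median of 0.03 over all genes. A further list of 31 measured HIF targets, read below, had a median difference of 0.11, like the enzymes, with 20 above 0. Without both, the median of this list was 0.20. The higher median of the 15 other targets thus did not extend to it. Without Vehicle 2 and AZD7507 2 the medians of the enzymes and the 15 other targets were 0.40 and 0.43, so that the gap between both groups of genes was smaller. It was also smaller with limma array weights on all 6 libraries (0.21 and 0.21) and without Vehicle 2 alone (0.20 and 0.26). Without AZD7507 2 alone the medians were 0.28 and 0.44. The medians of the 15 enzymes and the 15 other targets had opposite signs in Vehicle 2. There 13 of 15 enzymes lay above their own mean, with a median deviation of 0.18, but only 7 of 15 other targets, with a median deviation of -0.09. The targets below their mean in Vehicle 2 included Car9, Car12, Ndrg1, Kdm3a, Mxi1 and Ddit4. The further list of HIF targets had the sign of the enzymes there. In it 20 of 31 genes lay above their mean in Vehicle 2, with a median deviation of 0.20. In other libraries the enzymes and the 15 other targets had medians of the same sign except in Vehicle 3, where both were near 0. The gap in AZD7507 3 was at least as wide as that in Vehicle 2. These medians were -0.39 and -0.42 in Vehicle 1, -0.04 and 0.06 in Vehicle 3, 0.14 and 0.17 in AZD7507 1, -0.26 and -0.20 in AZD7507 2, and 0.21 and 0.51 in AZD7507 3. AZD7507 2, rich in acinar transcripts like Vehicle 2, was thus low for both groups of genes where Vehicle 2 was high for the enzymes. No test was made of these medians, since the members share their libraries.

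**Figure D4:**
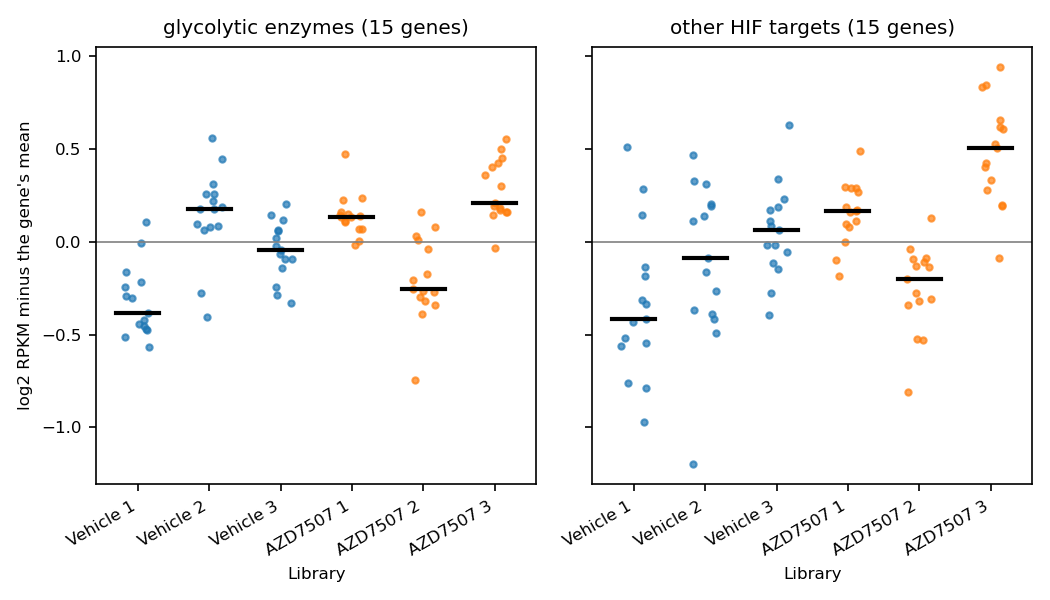
Deviation of log2 RPKM from each gene's mean over the 6 libraries (vertical axis) for 15 glycolytic enzymes (left) and 15 other HIF targets (right), by library; each point is 1 gene, blue for Vehicle and orange for AZD7507, and bars are medians. In Vehicle 2 the median is 0.18 for the enzymes and -0.09 for the other targets.

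Leaving both acinar-rich libraries out raised the median difference of the members from 0.20 to 0.40 but gave no call. Differences were then above 0 for 36 of 38 members, against 53.6% of all genes, and 0 members passed (limma, 2 against 2 libraries), where 0.0857% of all genes did. At an unadjusted p under 0.05 there were 18 members higher and 0 lower, against 7.59% and 8.77% of all genes. The 2 groups did not overlap upward for 25 members, against 26.6% of all genes, and the smallest adjusted p was 0.102, for Aldoc (difference 0.61). Over all settings the limma adjusted p ran from 0.10 to 0.993 for Aldoc, from 0.128 to 0.993 for Ero1l, from 0.174 to 0.996 for Hk2 and from 0.176 to 0.993 for Ak4. These numbers rest on 2 tumours a group, of which Vehicle 1 was the lowest library of all 6 for 22 members. With all libraries but Vehicle 1, the median difference of the enzymes was -0.02 and that of the other targets 0.12, and 23 of 38 members were above 0. Without AZD7507 3 the medians were 0.04 and 0.08, with 25 members above 0.

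Other genes of the pathway were then read in the same fit. Of 73 further listed genes 66 were measured, and 0 passed in either direction (limma), where 0.355% of all genes did. At an unadjusted p under 0.05 there were 3 higher and 3 lower, against 3.31% and 5.49% of all genes. Their median difference was 0.07, with 42 of 66 above 0. In the HIF pathway itself, Arnt, Vhl (which tags the hydroxylated alpha subunit for destruction), Egln2 and Hif1an differed by 0.02, 0.18, -0.06 and 0.03. Without both, these differed by 0.12, 0.26, -0.08 and -0.04. Larger differences, in opposite directions, were those of Arnt2 (0.59) and Hif3a (-0.31), where the groups overlapped. Without both, Arnt2 and Hif3a differed by 0.22 and -0.16. The pentose phosphate genes had a median difference of -0.07 over 7 genes, and the further HIF targets a median of 0.11 over 31 genes.

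The pathway genes with the smallest unadjusted p included Cxcr4, a chemokine receptor gene and HIF target of leukocytes. It was at 3.77, 4.01 and 3.88 with Vehicle and 3.48, 3.36 and 3.13 with AZD7507, for a difference of -0.56 (SE 0.13, limma adjusted p 0.180), or -0.52 without both, and the groups did not overlap. Hk3, the hexokinase of myeloid cells, differed by -0.89 (limma adjusted p 0.529), and Bhlhe41, a clock repressor gene, by -0.70 (limma adjusted p 0.478). Without both they differed by -0.55 and -0.33. Cxcr4 and Hk3 are known from leukocytes, and the macrophage markers moved the same way. Of 4 measured neutrophil markers (7 listed), Csf3r was also lower, by -0.68. The others, S100a8, S100a9 and Cxcr2, were higher by 0.91, 0.76 and 1.11, and 0 of the 4 were called. The part of macrophages or neutrophils in the values of Cxcr4 and Hk3 was not tested. In the other direction, Slc16a1, the lactate transporter MCT1, was at 4.79, 5.21 and 4.93 with Vehicle and 5.33, 5.27 and 5.52 with AZD7507, without overlap, a difference of 0.40 (SE 0.14, limma adjusted p 0.464), and 0.57 without both. Ppp1r3c, which directs glycogen storage, differed by 0.62 (limma adjusted p 0.462), again without overlap, and by 0.54 without both. Vegfa, the vessel growth factor gene induced by HIF, differed by 0.39 (limma adjusted p 0.646), and Gapdh, the enzyme step before Pgk1, by -0.08 (limma adjusted p 0.953), with 24.7% of its stretches of 50 bases shared with other genes. Without both, Vegfa and Gapdh differed by 0.52 and 0.33.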

How the data were processed

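RNA depleted of ribosomal RNA was sequenced from 3 Vehicle and 3 AZD7507 tumours, per the labels. The authors deposited 1 table of log2 RPKM normalized with cqn, as its name says, and BWA 0.7.15-r1140, HTSeq and the builds mm10 and GRCm38 are named in the submitters' processing notes. The annotation, strand setting and low-value filter are not given in the sources used here. Base 2 was checked: RPKM times exon length summed to 1016567 to 1097209 per library with base 2, and to 5498353 or more with base e. Read depth is unknown, so precision comes from the spread over 3 tumours, and cqn hides global changes.

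Symbols came from GENCODE M21 (16306 of 16344 identifiers). All genes were fitted with limma 3.58.1 (R 4.3.3, trended robust prior, 2-sided, 95% intervals), without pseudocount or filter. This fit was also tested on simulated data, with larger changes than those of the members with all libraries. That test does not show whether differences as small as theirs could be called. Replicates were numbered in record order and pair nothing, and the labels name no batch. Alternatives were quantile normalization, centring on the median, a constant prior, array weights, a minimum mean of 0, pseudocounts of 1 or 0.1, leaving out each library, leaving out Vehicle 2 and AZD7507 2, and adding transporters to either gene group. Members and lists were chosen with earlier results of these data known. All members are named. Values in every library are given for the 2 members with the smallest unadjusted p per role and for Slc2a1, Ldha, Pgk1, Car9, Hif1a and Epas1, and of the other pathway genes the 5 with the smallest p, Gapdh and Vegfa are named. Library values of Hk2 and other genes named for the Vehicle extremes, and further pathway genes, were chosen after their values were seen.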

Additional observations from a re-analysis of the deposited data

How the results depend on the processing

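No member and no other pathway gene passed under any of the 14 alternatives, with a smallest adjusted p over members of 0.1. The numbers of all genes called, 3 higher and 55 lower, were 1 higher with a constant variance prior, 14 and 143 with limma array weights, 1 and 13 without both Vehicle 2 and AZD7507 2, and 0 higher and 0 to 14 lower without 1 library. The median difference of the enzymes moved from 0.11 to 0.40 without both. Of 38 members 19 kept the sign of their difference under all 14 and 19 changed it under at least 1. Without 1 library in turn, the differences that changed sign ran from -0.11 to 0.50 for Hk2, from -0.13 to 0.051 for Gpi1, from -0.14 to 0.14 for Pfkl, from -0.021 to 0.18 for Aldoa, from -0.040 to 0.52 for Pgk1, from -0.22 to 0.26 for Eno1, from -0.13 to 0.34 for Eno2. They ran from -0.067 to 0.28 for Pkm, from -0.17 to 0.20 for Ldha, from -0.0082 to 0.69 for Slc2a3, from -0.0090 to 0.22 for Slc16a3, from -0.13 to 0.31 for Pfkfb3, from -0.12 to 0.76 for Car9, from -0.12 to 0.75 for Car12. The rest ran from -0.071 to 0.30 for Bnip3, from -0.056 to 0.67 for Adm, from -0.17 to 0.20 for Ankrd37, from -0.34 to 0.18 for Ddit4, from -0.19 to 0.15 for Kdm3a, from -0.25 to 0.14 for Gapdh. With both Vehicle 2 and AZD7507 2 left out the differences of Gpi1, Pfkl, Ddit4 and Gapdh turned to 0.081, 0.17, 0.034 and 0.33. With limma array weights the differences of Pfkl, Ddit4 and Gapdh turned to 0.028, 0.026 and 0.17. The causes were not tested. No paired analysis was possible because the labels give no number shared between the groups. Depth is unknown, and members down to a mean log2 RPKM of 0.80 may rest on few reads.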

Other observations

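A few genes of fuel use were highest in both acinar-rich libraries. They were chosen after their values were seen. Pdk4, a kinase that spares glucose when fat is burned, was at a log2 RPKM of 3.44 in Vehicle 2 and 3.94 in AZD7507 2, and between 1.22 and 2.37 in the other 4 libraries. Its difference between the groups was -0.01. Slc16a7, the monocarboxylate transporter MCT2, was at 0.35 and 0.06 in the same libraries and at -3.56 to -1.40 in the others. Slc2a4, the insulin-responsive glucose transporter GLUT4 of fat and muscle, was at -0.80 and -0.35 there and at or below -1.52 in the others. The mean log2 level of 3 measured adipocyte markers, of 5 listed, was 0.42 and 0.72 in these libraries and -1.85 to -0.02 in the others. Of these markers only Cfd was highest in both libraries. Plin1 was highest in AZD7507 3 at -1.47, and Fabp4 was higher in Vehicle 3 (2.96) than in AZD7507 2 (2.89). The part of acinar or fat tissue in these values was not tested.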
